A study of Mus musculus with 16 samples.

Results

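Rnf207, Rasgef1a, Dgkk, Lrrc27, Tub, Wdr17, Xrra1 and Ckmt1 are 8 mouse genes outside the usual lists of rod genes that were picked because their levels were firmly higher at day 25 or day 28 than at day 18 in sorted rod-lineage cells from retinal organoids. They are 8 of the 32166 genes in the deposited gene table, and all 8 were among the 15202 genes with a CPM (reads scaled to a common library size) of at least 1 in at least 2 libraries. Their levels are described here across day and source in all 16 libraries, beside Nrl. Because differences from day 18 chose the genes, those differences are given as a description with no test.

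Retinal organoids are three-dimensional cultures in which pluripotent stem cells form layered retina. All 16 libraries came from cells sorted for green fluorescent protein (GFP) in organoids made from Nrlp-GFP transgenic stem cells, in which the promoter of Nrl drives GFP. The days after the start of differentiation were day 18 (2 iPSC and 3 ESC libraries), day 21 (1 and 3), day 25 (2 and 1), day 28 (1 and 1) and day 35 (1 and 1). The iPSCs, induced pluripotent stem cells, were clones of mouse embryonic fibroblasts infected with doxycycline-inducible lentiviral vectors for Oct3/4, Sox2, Klf4 and c-Myc. The ESCs, embryonic stem cells, were clones from the inner cell mass of blastocysts. Both were grown with retinoic acid and taurine and under low oxygen for the first stage of culture, so no library is free of these treatments. The sort used the Nrl promoter, so a high Nrl level checks the gate and is no finding. It does not separate rods by age, and nothing in the labels tells if the libraries of 1 group were separate cultures. The p-values below therefore measure only the spread between these libraries, which may be technical.

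The libraries held 3850950 to 21876945 estimated counts, so that 1 count was worth 0.037 to 0.214 CPM. Nrl was at 15.99 CPM in iPSC day 18 replicate 1 and at 17.74 CPM in ESC day 18 replicate 1, against 136 to 1921 CPM in the other 14 libraries. These day 18 libraries stand apart from the rest by the gene whose promoter was used for the sort. They also had the highest summed level of 9 markers of dividing progenitors. It was 2908 CPM in the iPSC and 2769.5 CPM in the ESC library, against 43.9 to 1381 CPM in the other 14. The part of dividing progenitors in the differences from day 18 was not tested. The summed level of 15 genes of the rod light response was 355 to 1899 CPM at day 18, 1063 to 6409 CPM at day 21 and 14511 and 6022 CPM in the iPSC and ESC libraries at day 35.

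Rods arise from retinal progenitors under the transcription factors Crx and Nrl, with Nr2e3 acting after Nrl, and then build an outer segment, a modified cilium packed with the proteins of the light response. The rod is also among the most energy-demanding of cells. Tub, the tubby protein, binds membrane phosphoinositides and helps carry receptors into cilia, and mice without it become obese and lose photoreceptors and hearing. Ckmt1 is the ubiquitous mitochondrial creatine kinase, which moves phosphate from ATP to creatine. Dgkk, diacylglycerol kinase kappa, turns the lipid messenger diacylglycerol into phosphatidic acid. Rasgef1a is an exchange factor known in human cells to activate the small GTPase Rap2. Rnf207 is a RING finger protein known from human and zebrafish work on the electrical recovery of heart muscle. Wdr17 is a WD repeat protein, Lrrc27 has leucine-rich repeats, and Xrra1 was named from a human tumour line with altered resistance to X-rays. Little is established about what these last 3 do in the retina.

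The 8 genes differed in the day of their highest mean and in how much of it they had reached before. Wdr17, Xrra1 and Ckmt1 had day 21 means at 8.3%, 8.9% and 12.5% of their highest day mean and their highest mean at day 35. Rnf207, Rasgef1a, Lrrc27 and Tub stood at 67.1 to 100% of their highest day mean by day 25. Dgkk was at 61.5% of its highest mean at day 21, reached it at day 25 and was down to 23.6% and 19.1% at days 28 and 35. At day 25 the means of Wdr17, Xrra1 and Ckmt1 were nevertheless 5.25, 6.58 and 3.88 times their day 18 means, beside 5.2 times for Lrrc27 and 4.57 times for Tub. These 3 are also the genes that were not called at day 25 when the 8 were chosen, so this grouping is not independent of the choice. In bulk libraries fewer cells of a type and less RNA per cell cannot be told apart.

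**Figure D1:**
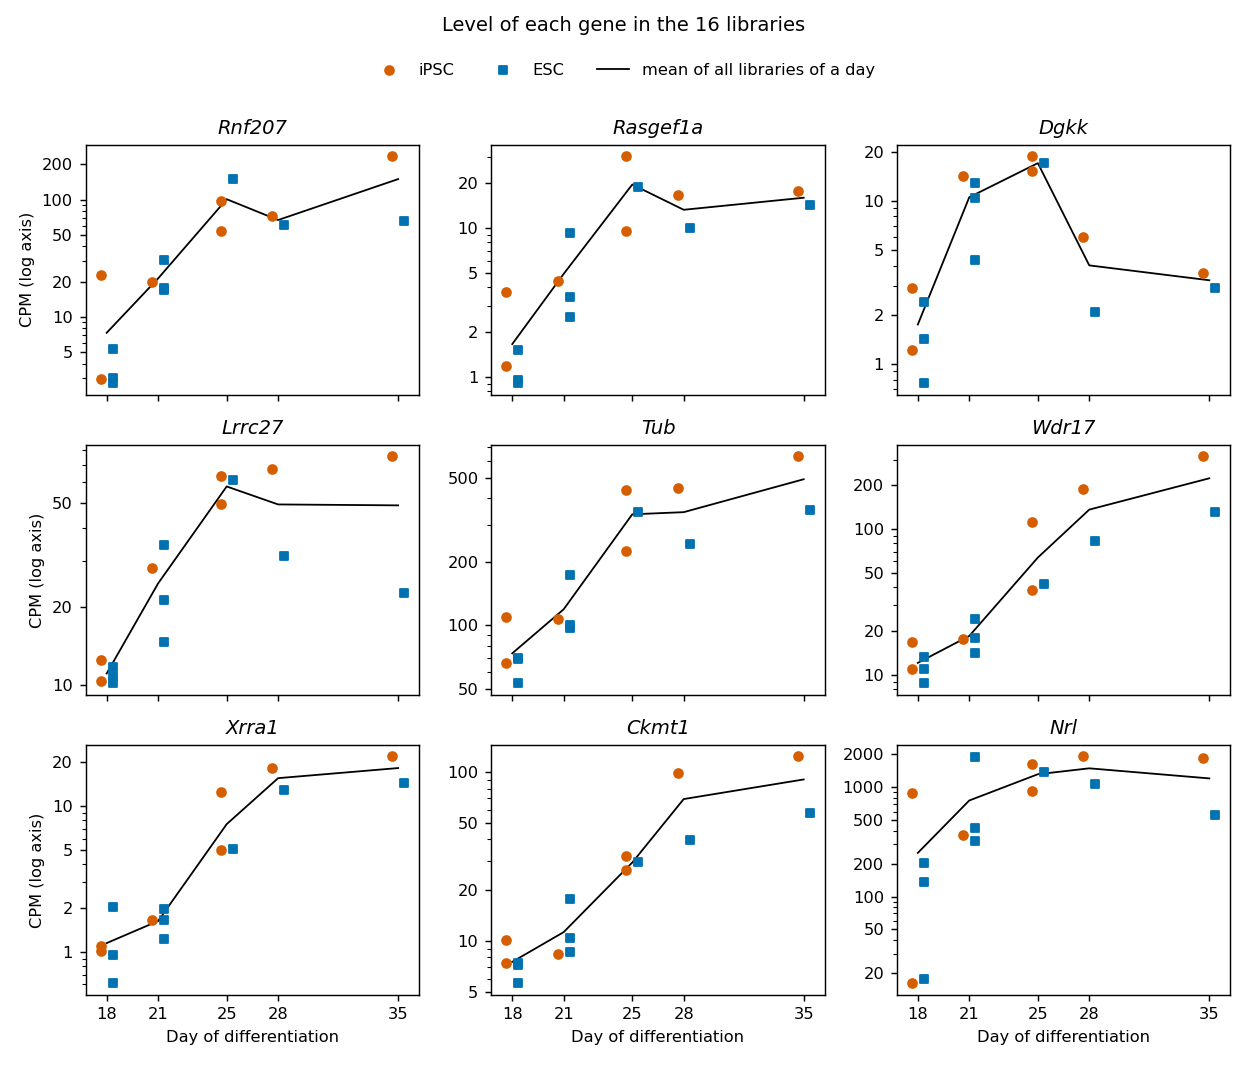
Level of each of the 8 genes and of Nrl in CPM (log axis) against day of differentiation; circles are iPSC libraries, squares ESC libraries and the line joins the means of all libraries of a day. Dgkk is highest at day 25 (15.2 to 18.7 CPM) and back at 2.92 to 3.58 CPM at day 35, while Wdr17 and Ckmt1 are highest at day 35.

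Wdr17 had 10.95 and 16.7 CPM in iPSC and 13.3, 8.75 and 11.04 CPM in ESC libraries at day 18. At day 21 it had 17.7 CPM in iPSC and 14.2, 18.0 and 24.2 CPM in ESC libraries. It then had 38.0 and 111 CPM in iPSC and 42.3 CPM in ESC libraries at day 25, 190 and 82.8 CPM in iPSC and ESC at day 28, and 315 and 131 CPM in iPSC and ESC at day 35. The day 18 and day 21 ranges overlapped, and every library from day 25 on lay above all 9 of the earlier ones. Both sources moved up at each later step, by 4.22, 2.54 and 1.66 times in iPSC and by 2.25, 1.96 and 1.58 times in ESC for days 25 over 21, 28 over 25 and 35 over 28.

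Xrra1 had 1.02 and 1.10 CPM in iPSC and 0.61, 2.05 and 0.95 CPM in ESC libraries at day 18, and 1.67 CPM in iPSC and 1.65, 1.23 and 1.96 CPM in ESC libraries at day 21. From day 25 its levels were 4.98 and 12.6 CPM in iPSC and 5.07 CPM in ESC, then 18.3 and 12.9 CPM in iPSC and ESC at day 28, and 22.0 and 14.6 CPM in iPSC and ESC at day 35. Here too the day 18 and day 21 ranges overlapped and every library from day 25 on was above both.

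Ckmt1 had 7.41 and 10.1 CPM in iPSC and 7.39, 5.61 and 7.18 CPM in ESC libraries at day 18, and 8.44 CPM in iPSC and 10.5, 8.66 and 17.8 CPM in ESC libraries at day 21. It was close in the sources at day 25, at 26.4 and 31.8 CPM in iPSC and 29.5 CPM in ESC. The sources then parted, with 98.9 and 39.9 CPM in iPSC and ESC at day 28 and 124 and 57.1 CPM in iPSC and ESC at day 35. All libraries from day 25 on again lay above all earlier ones.

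Tub had 66.3 and 109 CPM in iPSC and 69.3, 52.9 and 70.2 CPM in ESC libraries at day 18. At day 21 it had 107 CPM in iPSC and 101, 96.7 and 173 CPM in ESC libraries. At day 25 it had 225 and 437 CPM in iPSC and 345 CPM in ESC libraries. It was at 446 and 243 CPM in iPSC and ESC at day 28, and at 633 and 354 CPM in iPSC and ESC at day 35. Every library from day 25 on was above those of days 18 and 21, and the ranges of days 25, 28 and 35 overlapped.

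At day 18 Rnf207 spread over 8.33 times from lowest to highest library, with 2.97 and 22.6 CPM in iPSC and 3.00, 5.36 and 2.71 CPM in ESC libraries. iPSC day 18 replicate 2, with 22.6 CPM, lay above 3 of the 4 day 21 libraries, which had 19.8 CPM in iPSC and 16.9, 17.8 and 30.9 CPM in ESC. At day 25 it had 54.0 and 96.6 CPM in iPSC and 151 CPM in ESC, at day 28 72.9 and 61.4 CPM in iPSC and ESC, and at day 35 234 and 65.5 CPM in iPSC and ESC. The ESC level at day 25 was thus the second highest of all 16, and the ESC levels at days 28 and 35 were less than the iPSC ones. The same iPSC day 18 library also had the highest Nrl level of day 18, 881 CPM.

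Rasgef1a had 1.18 and 3.73 CPM in iPSC and 0.96, 0.91 and 1.51 CPM in ESC libraries at day 18, and 4.42 CPM in iPSC and 3.45, 2.51 and 9.26 CPM in ESC libraries at day 21. Its highest value was at day 25, where it had 9.57 and 30.1 CPM in iPSC and 18.9 CPM in ESC libraries. It had 16.5 and 9.97 CPM in iPSC and ESC at day 28 and 17.8 and 14.1 CPM in iPSC and ESC at day 35. The days 25, 28 and 35 overlapped one another, and all their libraries lay above day 21, the closest by 9.57 against 9.26 CPM.

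Lrrc27 hardly varied at day 18, with 10.4 and 12.5 CPM in iPSC and 10.8, 11.8 and 10.2 CPM in ESC libraries. All 4 day 21 libraries lay above it, with 28.2 CPM in iPSC and 14.7, 21.2 and 34.6 CPM in ESC. At day 25 the levels were 49.4 and 63.2 CPM in iPSC and 61.1 CPM in ESC. The sources then went apart, a difference that was not tested, with 67.5 and 31.2 CPM in iPSC and ESC at day 28 and 75.5 and 22.6 CPM in iPSC and ESC at day 35. The day 35 ESC library lay inside the day 21 range, and the day 35 iPSC library was the highest of all 16.

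Dgkk had 1.22 and 2.91 CPM in iPSC and 0.76, 2.39 and 1.43 CPM in ESC libraries at day 18. All 4 day 21 libraries were above these, with 14.2 CPM in iPSC and 4.35, 10.4 and 12.9 CPM in ESC. At day 25 it had 18.7 and 15.2 CPM in iPSC and 17.1 CPM in ESC libraries, the closest agreement between libraries that this gene showed on a day with more than 2 of them. By day 28 it was at 5.95 and 2.08 CPM in iPSC and ESC, and at day 35 at 3.58 and 2.92 CPM in iPSC and ESC. Both day 35 libraries lay below every day 21 and day 25 library, and just above the day 18 range.

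**Figure D2:**
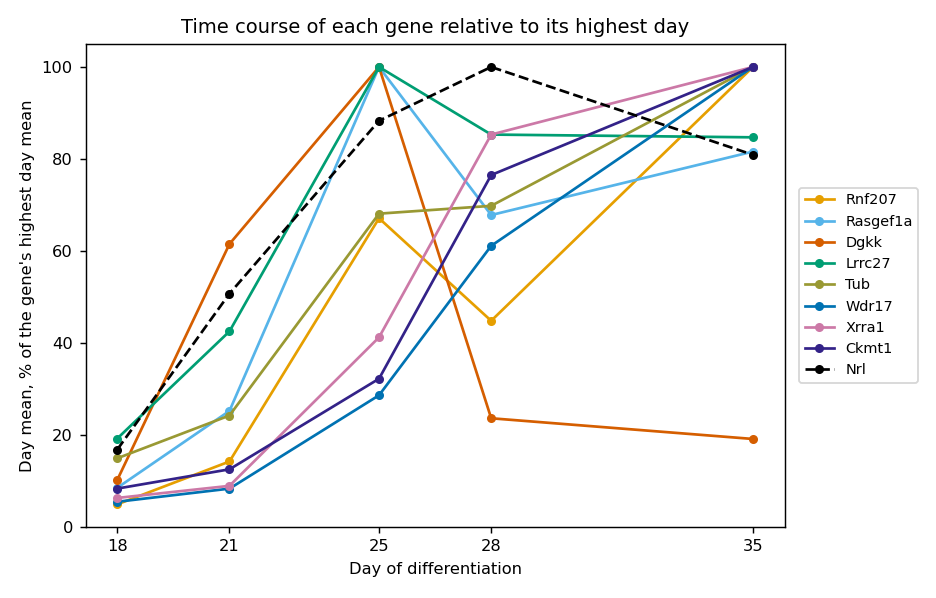
Mean CPM of each day as a percent of that gene's highest day mean, against day of differentiation, for the 8 genes (solid) and Nrl (dashed). At day 21 Dgkk is at 61.5% and Nrl at 50.7% of the highest mean, and Wdr17 is at 8.3%. Dgkk is the lowest of the genes shown at days 28 and 35 (23.6% and 19.1%), and Rnf207 is at 44.8% at day 28.

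Nrl itself had 15.99 and 881 CPM in iPSC and 17.74, 202.6 and 136 CPM in ESC libraries at day 18, and 369 CPM in iPSC and 321, 428 and 1915 CPM in ESC libraries at day 21. It had 932 and 1628 CPM in iPSC and 1396 CPM in ESC at day 25, 1921 and 1067 CPM in iPSC and ESC at day 28, and 1860 and 556 CPM in iPSC and ESC at day 35. Its levels overlapped between most days. Across the 16 libraries, which share days and the day 18 libraries that stand apart, Pearson's r with Nrl on log2(CPM + 1) was 0.87 for Rnf207, 0.83 for Rasgef1a, 0.79 for Lrrc27, 0.77 for Tub, 0.68 for Ckmt1, 0.66 for Wdr17 and Xrra1 and 0.65 for Dgkk. Without both day 18 libraries of low Nrl, it was 0.43 for Dgkk and 0.64 to 0.87 for the other 7 genes over 14 libraries. These values are descriptions, since all of these genes changed with day.

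By level per transcript length (TPM, the deposited length-scaled unit), the day 35 means were 217 ± 155 for Rnf207, 216 ± 63.0 for Tub, 215 ± 104 for Wdr17, 162 ± 68.2 for Ckmt1 and 98.1 ± 66.5 for Lrrc27 (SD, n = 2). Xrra1 had 26.7 ± 4.69, Rasgef1a 11.8 ± 0.546 and Dgkk 1.16 ± 0.034 TPM at day 35 (SD, n = 2). The first 5 of these 8 genes do not differ from their neighbours in this order beyond their spread, and for the last 3 the libraries overlap neither those of each other nor those of the rest. At day 25 Dgkk had 5.84 ± 0.688 TPM (SD, n = 3), its highest day mean and still the least of the 8.

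The genes were chosen on the contrasts of days 25 and 28 with day 18, in which limma called few genes at all. A gene is called where its Benjamini-Hochberg adjusted p over the 15202 genes is under 0.05. At day 25, 6 genes were called higher (0.0395% of those tested), and 5 of them were Rnf207, Rasgef1a, Dgkk, Lrrc27 and Tub. At day 28, 77 genes were called higher (0.507%) and 88 in either direction (0.579%, with 0.0724% lower), among them all of the 8 except Dgkk. The log2 differences from day 18 at days 25 and 28 were 3.81 and 3.42 for Rnf207, 2.82 and 2.44 for Rasgef1a, 2.66 and 0.77 for Dgkk, 2.16 and 1.91 for Lrrc27, and 2.08 and 2.16 for Tub. For Wdr17 they were 2.01 and 3.24, for Xrra1 1.85 and 2.94, and for Ckmt1 1.75 and 2.89. Without both day 18 libraries of low Nrl the 8 differences were 1.68 to 3.31 at day 25 and 0.46 (Dgkk) to 3.20 (Wdr17) at day 28. The last of the 8 genes inside the day 25 threshold was Lrrc27 at 2.16. The first gene outside it was Fbxl21 at 2.49, among genes with a difference above 0 and no predicted gene name. At day 28 these were Rasgef1a at 2.44 and Wasf3 at 1.41. Nothing is read from these counts, since they chose the genes.

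Day 35 against day 21 compares libraries that the choice of genes did not use, apart from the shared spread and the source term. In this contrast 4 of the 8 genes were called higher, namely Wdr17, Xrra1, Ckmt1 and Tub. The choice favoured genes with a small spread in the fit, and that spread enters this test too. The 4 of 8 therefore cannot be compared with the share of all genes. Of all tested genes 1.35% were called higher and 1.45% lower. That even split rests on the iPSC day 35 library: 205 genes were called higher and 220 lower, but 430 and 126 without it, and 178 and 11 within ESC. Both day 35 libraries lay above all 4 day 21 libraries for 6 of the 8 genes (11.3% of genes tested), and below them for Dgkk (12.2% of genes tested). Apart from Dgkk the genes varied closely together across the libraries, so the 6 of 8 cannot be compared with the share of all genes either. The median log2 difference of the 8 genes was 2.18, and that of all tested genes 0.03. The day 35 group is 1 iPSC and 1 ESC library.

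Wdr17 averaged 223 ± 130 CPM at day 35 (SD, n = 2) and 18.5 ± 4.17 CPM at day 21 (SD, n = 4). Its log2 difference was 3.28 (SE 0.41, 95% confidence interval 2.40 to 4.15, limma adjusted p = 0.0044). Xrra1 averaged 18.3 ± 5.26 CPM at day 35 and 1.63 ± 0.299 CPM at day 21, a log2 difference of 2.80 (SE 0.37, interval 2.00 to 3.59, limma adjusted p = 0.0055). Ckmt1 averaged 90.7 ± 47.4 CPM at day 35 and 11.3 ± 4.41 CPM at day 21, a log2 difference of 2.76 (SE 0.37, interval 1.96 to 3.57, limma adjusted p = 0.0055). Tub averaged 493 ± 197 CPM at day 35 and 119 ± 35.9 CPM at day 21, a log2 difference of 1.94 (SE 0.35, interval 1.19 to 2.69, limma adjusted p = 0.015). In all 4 genes both day 35 libraries were above every day 21 library. Without both day 18 libraries of low Nrl the same 4 genes were called (limma adjusted p 0.0061 for Wdr17, 0.011 for Xrra1, 0.012 for Ckmt1 and 0.031 for Tub). With limma's array weights, which weight each library by how well the model fits it, none of the 4 was called (adjusted p 0.10 to 0.17), although the log2 differences were 2.06 to 3.42. Tub also missed the threshold without the ESC day 35 library (adjusted p = 0.052), the iPSC day 35 library (0.059) or the iPSC day 21 library (0.069) in the same limma fit.

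The other 4 genes did not pass. Rnf207 averaged 149.9 ± 119 CPM at day 35 and 21.3 ± 6.47 CPM at day 21, with a log2 difference of 2.42 and an interval of 0.97 to 3.87 (limma adjusted p = 0.074). Without iPSC day 18 replicate 2, the library in which Rnf207 was high, its limma adjusted p was 0.025 with a log2 difference of 2.52. The log2 difference was 1.67 without the iPSC day 35 library (limma adjusted p = 0.30) and 3.28 without the ESC one (0.092), so its size depends on a single library either way. Rasgef1a averaged 15.9 ± 2.57 CPM at day 35 and 4.91 ± 3.0 CPM at day 21, with a log2 difference of 1.55 and an interval of 0.47 to 2.64 (limma adjusted p = 0.12). Lrrc27 averaged 49.0 ± 37.4 CPM at day 35 and 24.6 ± 8.6 CPM at day 21, with a log2 difference of 0.68 and an interval of -0.15 to 1.51 (limma adjusted p = 0.38). That log2 difference was 0.01 without the iPSC day 35 library and 1.46 without the ESC one, so it rests on the iPSC library. Dgkk averaged 3.25 ± 0.469 CPM at day 35 and 10.5 ± 4.36 CPM at day 21, with a log2 difference of -1.44 and an interval of -2.37 to -0.51 (limma adjusted p = 0.093). Without ESC day 21 replicate 1, its lowest day 21 library, Dgkk had a log2 difference of -1.72 (limma adjusted p = 0.044). Nrl had a log2 difference of 0.77 with an interval of -2.03 to 3.58 (limma adjusted p = 0.81), so a difference of several fold in either direction was not detectable in these libraries.

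**Figure D3:**
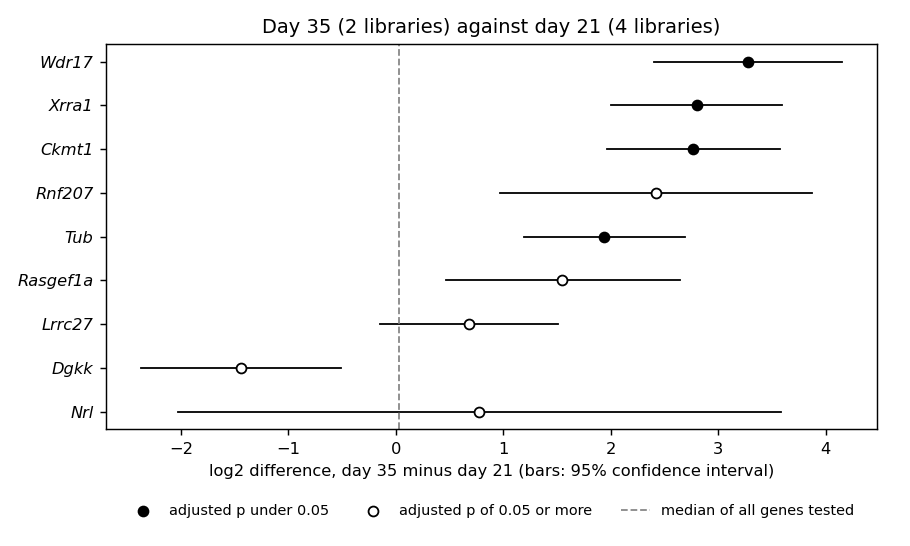
Log2 difference of day 35 (2 libraries) minus day 21 (4 libraries) for the 8 genes and Nrl; points are limma estimates, bars 95% confidence intervals, filled points have an adjusted p under 0.05 over all genes, and the dashed line is the median of all genes tested (0.03). Wdr17, Xrra1, Ckmt1 and Tub are filled, and Dgkk is the only one of the 8 below 0.

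Markers of other retinal cells also differed between these libraries. The summed level of 7 Müller glia markers was 128 CPM in the iPSC and 1164 CPM in the ESC day 35 library, against 269.7 to 440.5 CPM at day 21. For 7 bipolar cell markers it was 90.6 CPM in the iPSC and 395.7 CPM in the ESC day 35 library, against 59.1 to 88.1 CPM at day 21. For 6 pigment epithelium markers it was 105.4 CPM in the iPSC and 2166 CPM in the ESC day 35 library, against 56.1 to 155.5 CPM at day 21. The pigment marker Rpe65 was at 0 in 5 of these 6 libraries, all but ESC day 35. Most of the ESC day 35 pigment sum was 1 gene, Ttr, at 2072 CPM. The log2 difference of day 35 minus day 21 was -1.88 for Dct. It was 1.25 for Tyr, 1.14 for Mitf and 1.29 for Pmel, and none of these was called. All 8 genes were lower in the ESC day 35 library than in the iPSC one. They kept this order at both day 28 and day 35, as did 33.0% of all tested genes. The CPM of all genes summed to 720169 in the ESC and 874489 in the iPSC day 35 library. For 9 markers of dividing progenitors the sum was 43.9 CPM in the iPSC and 351 CPM in the ESC day 35 library, against 115.5 to 833 CPM at day 21. For 6 cone markers it was 119 CPM in the iPSC and 90.2 CPM in the ESC day 35 library, against 328 to 808 CPM at day 21. For 6 amacrine markers it was 171 CPM in the iPSC and 393 CPM in the ESC day 35 library, against 194.8 to 289.8 CPM at day 21. For 8 horizontal and ganglion cell markers it was 27.7 CPM in the iPSC and 56.6 CPM in the ESC day 35 library, against 70.2 to 257 CPM at day 21. The part of these other cells in the day 35 values was not tested.

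No gene of the 15202 was called between iPSC and ESC libraries by limma (0.0% called, 840 at an unadjusted p under 0.05), and none by edgeR (317 unadjusted) or DESeq2. All 8 genes had a difference above 0, where 53.6% of all tested genes did, and their median log2 difference was 0.38 against 0.02 for all tested genes. Apart from Dgkk these genes varied closely together across the libraries, so the 8 do not count as separate observations. The log2 differences were 0.54 for Wdr17 (95% confidence interval 0.01 to 1.06), 0.45 for Lrrc27 (-0.05 to 0.95), 0.43 for Rnf207 (-0.44 to 1.30), 0.42 for Dgkk (-0.14 to 0.98), 0.35 for Ckmt1 (-0.14 to 0.83), 0.32 for Tub (-0.13 to 0.77), 0.31 for Rasgef1a (-0.34 to 0.96) and 0.24 for Xrra1 (-0.23 to 0.72), with limma adjusted p from 0.75 to 0.79. With the CPM of each library rescaled to the same sum, the log2 differences ran from 0.18 for Xrra1 to 0.46 for Wdr17. With array weights they ran from -0.02 for Rnf207 to 0.37 for Dgkk and Xrra1. Without iPSC day 18 replicate 2 the log2 differences were 0.04 for Rnf207 and 0.14 for Rasgef1a, and 0.22 to 0.50 for the other 6 genes. At day 18 the ratio of mean CPM in iPSC to that in ESC was 3.46 for Rnf207, 2.18 for Rasgef1a and 3.78 for Nrl, with that library the highest of the day for each, and 0.884 to 1.37 for the other 6 genes. At both day 28 and day 35 the iPSC library was above the ESC library for all 8 genes, as it was for 33.0% of all tested genes, with 1 library a side and so no test. At day 35 the ratio of iPSC to ESC was 3.58 for Rnf207, 3.35 for Lrrc27, 2.41 for Wdr17, 2.17 for Ckmt1, 1.79 for Tub, 1.51 for Xrra1, 1.26 for Rasgef1a and 1.23 for Dgkk, and it was 3.35 for Nrl. At day 21 it lay between 0.685 for Ckmt1 and 1.53 for Dgkk, and for Nrl it was 0.415. At day 25 it ran from 0.497 for Rnf207 to 1.76 for Wdr17.

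**Figure D4:**
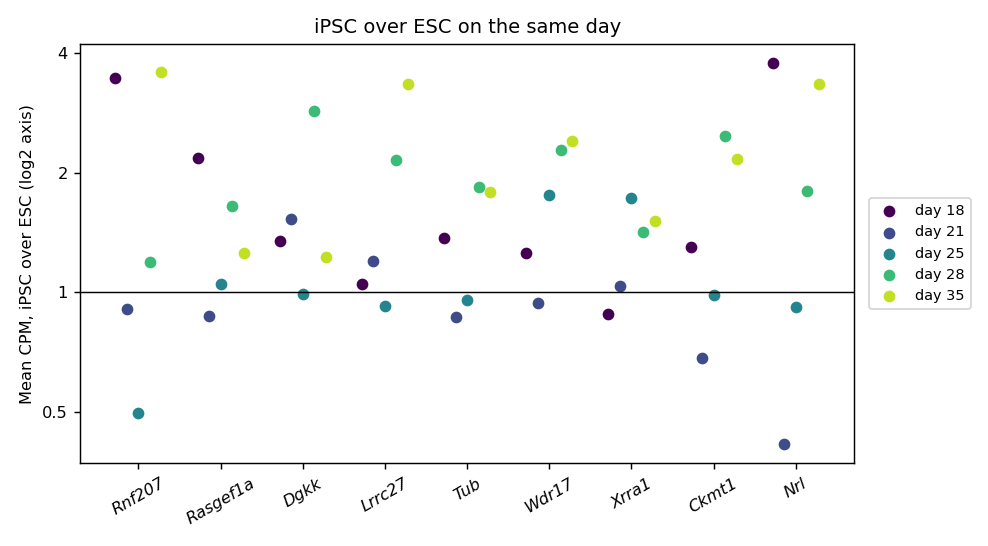
Ratio of mean CPM in iPSC to mean CPM in ESC libraries of the same day (log2 axis) for the 8 genes and Nrl, 1 point for each day, with no error because most days have 1 library on a side. All day 28 and day 35 points lie above 1; the highest of the 8 genes is Rnf207 at day 35 (3.58).

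Correlations between the 8 genes are given as a description only, since the libraries of days 18, 25 and 28 that chose them are among the points. Over the 16 libraries, which share days and sources, Pearson's r on log2(CPM + 1) was 0.98 between Wdr17 and Ckmt1, 0.97 between Wdr17 and Xrra1, 0.97 between Rasgef1a and Tub and 0.95 between Rnf207 and Rasgef1a. Dgkk stood apart, with r of 0.20 to 0.68 to the other 7 genes. Among 11041 genes with a mean of at least 5 CPM, the 3 most like Wdr17 were Ckmt1 (r = 0.979), Pde6a (0.971) and Xrra1 (0.966). Pde6a, the alpha subunit of the rod phosphodiesterase that breaks down cyclic GMP, was also among the 3 most like Xrra1 (0.963). Ckmt1 was followed by Wdr17, then Scamp5 (0.966), a protein of secretory vesicles, and Guk1 (0.962), guanylate kinase. Tub was most like Glp2r (0.987), a peptide hormone receptor, Scamp5 (0.971) and Rdh8 (0.968), a photoreceptor enzyme that reduces retinal to retinol. Rdh8 (0.960) and Snrk (0.959), a protein kinase, came after Tub among the genes most like Rasgef1a. For Rnf207 the closest were Col5a3 (0.973), a collagen chain, Slc31a2 (0.969), a copper transporter, and Pip4k2c (0.969), a phosphoinositide kinase. For Lrrc27, Repin1 (0.943) and Jade2 (0.943) were among the closest. For Dgkk they were Pde8a (0.902), a cyclic AMP phosphodiesterase, Efr3a (0.899) and Xk (0.888), none of them another of the 8.

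The relatives of these genes were mostly not called in day 35 against day 21. Of 4 tested genes of the tubby family only Tub was called; Tulp1, itself a photoreceptor gene, averaged 1098 ± 1051 CPM at day 35 and 519.7 ± 325 CPM at day 21, a log2 difference of 0.76 (limma adjusted p = 0.79). Of 6 tested genes for creatine kinases, creatine synthesis and uptake only Ckmt1 was called. Ckb, the cytosolic brain form, averaged 458 ± 235 CPM at day 35 and 539.8 ± 211 CPM at day 21, and the muscle mitochondrial form Ckmt2 was below the filter on low values. The creatine transporter Slc6a8 had a log2 difference of -0.31 and the synthesis enzyme Gamt one of -1.59 (limma adjusted p = 0.45 and 0.071). None of 9 diacylglycerol kinases was called, and their median log2 difference was -0.23; Dgkd, the most abundant, had a log2 difference of -0.63 and Dgke one of 1.11. None of 6 RasGEF1 exchange factors and Rap2 GTPases was called, with Rap2a at 0.04 and Rap2c at -0.26. None of the 6 subunits of intraflagellar transport complex A, the cilium trafficking complex to which tubby-family proteins bind, was called, with Wdr19 at 0.25 and Wdr35 at 0.56. These counts set no family apart from the genome, where 2.8% of genes were called in either direction.

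Of 14 tested genes of the rod light response, 4 were called higher at day 35 than at day 21, as were 1.35% of all tested genes. The median log2 difference of the 14 was 3.24, and only these 4 of them were called. They were Pde6a (5.40), Gucy2f (4.82), a guanylate cyclase that remakes cyclic GMP, Gnat1 (4.74), rod transducin alpha, and Rcvrn (4.34), the calcium sensor recoverin. Of 10 rod transcription factors only Esrrb was called, at 34.5 ± 17.8 CPM in day 35 libraries and 0.637 ± 0.3 CPM in day 21 libraries, a log2 difference of 4.23 (limma adjusted p = 0.0021). The differences of Wdr17, Xrra1 and Ckmt1 thus lay among those of the light response genes and above the median of the rod factors, 0.25. Among the other cell types, the Müller glia markers Aqp4 (4.31) and Abca8a (3.12) and the bipolar markers Grm6 (3.41) and Prkca (1.86) were called. The day 35 means were 114 ± 153 CPM for Aqp4, 12.7 ± 13.6 CPM for Abca8a, 40.0 ± 54.9 CPM for Grm6 and 107 ± 43.9 CPM for Prkca (SD, n = 2). The other tested markers ran from -0.54 to 2.79 for Müller glia and from -0.87 to 1.63 for bipolar cells. Both marker sums were higher in the ESC than in the iPSC day 35 library. Also called were the cone gene Pde6c (-4.74) and Onecut1 (-4.41), a factor of horizontal and ganglion cells. No gene was called of 6 amacrine, 9 dividing progenitor or 5 pigment epithelium markers tested.

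The transcript estimates show which forms carried these levels. They come from kallisto, which shares reads between overlapping transcripts, and rest on as few as 5 estimated counts per library for Xrra1. Rnf207 lies at chromosome 4, 152307019 to 152318993, on the minus strand (GRCm38). Of its 12 annotated transcripts, 2 are protein coding, and these held 20.7 ± 7.47% of its TPM at day 18 (SD, n = 5), 33.3 ± 3.54% at day 25 (n = 3) and 31.8 ± 6.1% at day 35 (n = 2). Its coding transcript Rnf207-201 had 73.8 TPM at day 35 and the annotated retained-intron transcript Rnf207-207 had 72.5 TPM, as the mean of both libraries. Most of the level of Rnf207 was thus assigned to transcripts annotated as retained introns on every day. Lrrc27 (chromosome 7, 139212988 to 139242979, plus strand) had 58.5 ± 3.49% of its TPM in coding transcripts at day 18 (SD, n = 5), 41.9 ± 7.47% at day 25 (n = 3) and 52.9 ± 8.5% at day 35 (n = 2). The day 25 libraries, at 33.3 to 46.9%, did not overlap those of day 18, at 54.4 to 64.0%. Tub (chromosome 7, 108950338 to 109034460, plus strand) was carried at every day by Tub-201, which had 166 TPM at day 35 and 39.1 TPM at day 21, with Tub-203, a retained-intron transcript, next at 44.8 TPM at day 35 and 7.23 TPM at day 21. Rasgef1a (chromosome 6, 118011438 to 118091546, plus strand) and Dgkk (chromosome X, 6779306 to 6948363, plus strand) have coding transcripts only. Xrra1 lies at chromosome 7, 99859116 to 99917822, on the plus strand. Its coding transcript Xrra1-202 had 15.8 TPM at day 35 and 1.22 TPM at day 21, and Xrra1-204, annotated for nonsense-mediated decay, had 6.19 TPM at day 35 and 0.184 TPM at day 21.

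**Figure D5:**
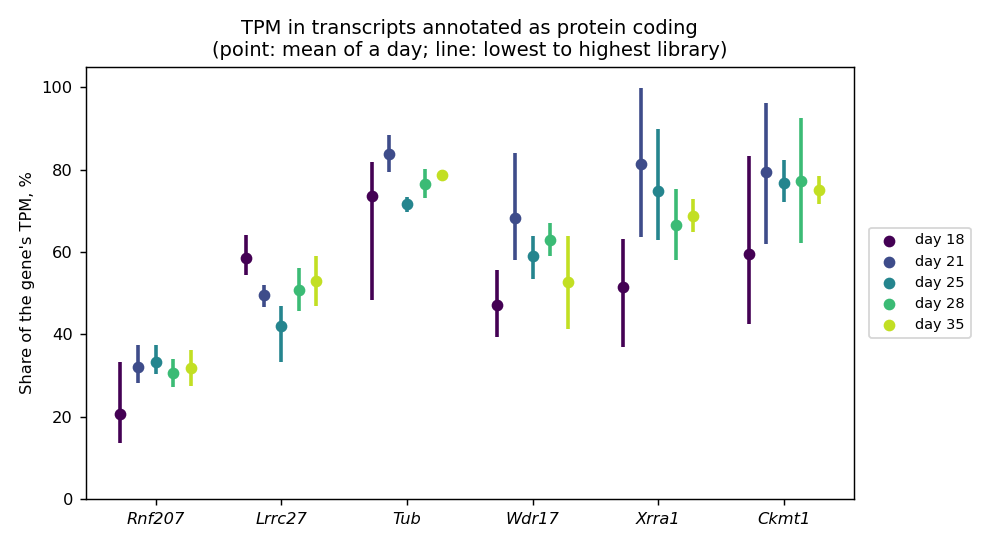
Share of each gene's TPM (%) in transcripts annotated as protein coding, by day; points are day means, lines run from the lowest to the highest library, and genes with coding transcripts only are left out. Rnf207 stays between 13.5 and 37.4% in all libraries, and Lrrc27 is lowest at day 25 (41.9%).

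Wdr17 (chromosome 8, 54629055 to 54887184, minus strand) and Ckmt1 (chromosome 2, 121357714 to 121363737, plus strand) varied most closely together, and their start regions are shown for that reason. The first sequence holds the start from which 41.1 to 65.8% of the TPM of Wdr17 began, by day, including its main coding transcript Wdr17-209. The second holds the main start of Ckmt1, with 55.9 to 84.9% of its TPM by day, and the third an upstream start of Ckmt1. Each runs from 250 bases before to 50 bases after an annotated start (RefSeq, GRCm38.p6), 5′ to 3′ on the strand of the gene. They are chr8:54724319-54724618 (minus), chr2:121358360-121358659 (plus) and chr2:121357526-121357825 (plus). Capitals mark the letters TGCTGA, of the kind that Nrl and its relatives bind, or their reverse complement TCAGCA.
Wdr17 main start: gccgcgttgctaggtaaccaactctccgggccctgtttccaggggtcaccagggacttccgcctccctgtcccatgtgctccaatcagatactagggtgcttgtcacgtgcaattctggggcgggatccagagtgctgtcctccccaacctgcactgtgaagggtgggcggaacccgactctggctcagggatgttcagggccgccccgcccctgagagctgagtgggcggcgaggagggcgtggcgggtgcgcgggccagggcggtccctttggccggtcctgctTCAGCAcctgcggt
Ckmt1 main start: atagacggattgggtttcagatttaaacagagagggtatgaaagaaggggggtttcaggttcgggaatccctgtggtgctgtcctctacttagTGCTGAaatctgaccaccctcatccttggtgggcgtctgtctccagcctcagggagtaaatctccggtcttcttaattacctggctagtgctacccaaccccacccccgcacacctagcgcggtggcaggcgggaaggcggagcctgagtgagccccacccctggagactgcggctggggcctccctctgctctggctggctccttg
Ckmt1 upstream start: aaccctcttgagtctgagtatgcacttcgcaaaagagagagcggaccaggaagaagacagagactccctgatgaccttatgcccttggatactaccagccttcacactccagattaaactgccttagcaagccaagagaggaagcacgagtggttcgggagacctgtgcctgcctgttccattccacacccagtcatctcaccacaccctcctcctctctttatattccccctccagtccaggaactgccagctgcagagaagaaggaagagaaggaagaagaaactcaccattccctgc

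The motif began 36 bases after the start in Wdr17 and 157 bases before it in the main start of Ckmt1, and the upstream window of Ckmt1 did not hold it. RefSeq windows were found for 7 of the 8 genes, 13 windows in all, some of them overlapping. TGCTGA was in 6 of the 13 on either strand, and in 19.5% of 32851 windows of all genes. Several of the 6 were alternative starts of Wdr17. In 1 of these no transcript with an estimate began (0.0% of its TPM), and another held at most 1.78% by day. Windows of the same gene are not independent, so the 6 of 13 cannot be compared with the share of all windows. TAATCC, of the kind that Crx binds, was in 1 of the 13 (7.06% of all windows), and AAGTCA, of the kind that Nr2e3 binds, in 0 of the 13 (15.1% of all windows). No matches to different motifs overlapped in the 13 windows. A match here is a description of letters and not of binding.

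The upstream start of Ckmt1 was used unevenly. Ckmt1-202, which begins there, had 9.50 TPM in the iPSC and 40.0 TPM in the ESC library at day 35, 4.51% and 35.1% of the TPM of the gene. In ESC day 18 replicate 2 it had 3.06 TPM (26.8%), in ESC day 21 replicate 2 0.232 TPM, and in the other 12 libraries it was listed at 0. Ckmt1-201 had 141 TPM in the iPSC and 47.3 TPM in the ESC library at day 35, against 10.9 TPM in the iPSC and 8.27 to 21.6 TPM in the ESC libraries at day 21. Wdr17-209 had 78.9 TPM in the iPSC and 68.1 TPM in the ESC library at day 35, against 5.11 TPM in the iPSC and 0.654 to 11.9 TPM in the ESC libraries at day 21. At day 35 that was 27.3% of the TPM of the gene in the iPSC and 48.3% in the ESC library. The retained-intron transcript Wdr17-203 had 145 TPM in the iPSC and 25.5 TPM in the ESC library at day 35, 50.2% and 18.1% of the TPM of Wdr17, so the order of these 2 transcripts differed between the day 35 libraries.

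Annotated neighbours and overlaps of these genes are given as a description, and no influence of a neighbour was tested. The gene nearest to Ckmt1 on the lower side, Ppip5k1, an inositol pyrophosphate kinase 2318 bases away, averaged 99.2 ± 41.5 CPM at day 35 and 41.4 ± 10.4 CPM at day 21, a log2 difference of 1.11 (limma adjusted p = 0.046). The sialidase gene Neu3, 30699 bases from Xrra1, averaged 17.4 ± 2.27 CPM at day 35 and 5.37 ± 0.821 CPM at day 21. Its log2 difference was 1.47 (limma adjusted p = 0.023). Csgalnact2, an enzyme of chondroitin sulfate synthesis, lies 15906 bases from Rasgef1a and had a log2 difference of 1.20 (limma adjusted p = 0.04). Rpl22, a ribosomal protein gene next to Rnf207, had one of -1.13 (limma adjusted p = 0.033). The other neighbours that were tested were not called, among them Rnf169, 2432 bases from Xrra1, at -0.34. Of all tested genes 2.8% were called in either direction. Exons of genes on the opposite strand overlap 12.6% and 1.78% of the exon bases of Tub (Gm26599 and Ric3), 6.68% and 5.71% of those of Xrra1 (A930030B08Rik and Gm38405), 5.61% and 2.53% of those of Lrrc27 (Gm45328 and Stk32c), 1.63% of those of Rnf207 (Icmt) and 0.401% of those of Ckmt1 (Strc). The kit keeps strand, but whether the quantification used it is not given in the sources used here, so reads in those overlaps are uncertain.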

How the data were processed

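Reads of polyA RNA from sorted cells went through Trimmomatic 0.36, and kallisto 0.42.5 then quantified them on Ensembl release 84 transcripts of GRCm38.p4, according to the design text and the submitters' processing notes. Gene values are length-scaled tximport sums that the authors converted to CPM in edgeR, again according to the design text. The deposited gene table, named as CPM, holds a score from -1 to 198.2 that equals the square of log2(CPM + 1) minus 1: back-transformed, 8489 of 8688 genes (97.7%) kept a constant ratio to the deposited values per transcript at a tolerance of 0.001 in log2. The deposited estimated counts and the deposited TPM list 65535 transcripts, and 65096 of these (99.3%) were found in GENCODE's GRCm38 annotation. They are complete for 10857 genes, the 8 described here included, but do not hold Nrl. Numbers of these tables are gene sums made here.

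The test was limma 3.58.1 (R 4.3.3) with trend on log2(CPM + 1) over 15202 genes, with day and source as factors over 16 libraries, two-sided. Differences on that scale understate changes of low genes. Alternatives were edgeR 4.0.16 and DESeq2 1.42.0 on rounded estimated counts (9321 genes), a pseudocount of 0.1, no filter or 5 CPM, rescaled CPM, array weights, a replicate block, leaving out libraries and fits within a source. The fits were tested on simulated data. Named are the 8 genes, Nrl, the 3 genes of highest correlation to each, up to 4 called or 2 most abundant genes of each list, and nearest neighbours; 1 gene under this rule is not reported here. Gamt, Slc6a8, Ckb, Ckmt2, Tulp1, Fbxl21 and Wasf3 were named after their values were seen. The genes and lists were chosen with earlier results of these data known.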

Additional observations from a re-analysis of the deposited data

Results flagged for a closer look

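Single libraries lay far from the others of their day for 5 of 18 gene and day groups checked. Chance marks about 1 in 20 independent groups, but these groups share libraries and the 5 come from 2 libraries, so the counts cannot be compared. The measure is the gap of the highest or the lowest library to the next, divided by the range of the day, set against Dixon's critical value for that number of libraries. iPSC day 18 replicate 2 was such a library for Rnf207 (22.6 CPM, ratio 0.867), Rasgef1a (3.73 CPM, 0.785) and Nrl (881 CPM, 0.784). ESC day 21 replicate 3 was one for Tub (173 CPM, 0.861) and Nrl (1915 CPM, 0.933). In both libraries the gene that marks the sort was high together with the others.

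The sources moved in opposite directions between day 28 and day 35 for 2 of the 8 genes. Dgkk at day 35 was 0.602 times its day 28 level in iPSC and 1.4 times in ESC libraries. Lrrc27 at day 35 was 1.12 times its day 28 level in iPSC and 0.723 times in ESC libraries. Each value rests on 1 library a day, and the difference between sources was not tested.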

How the results depend on the processing

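The number of genes called in day 35 against day 21 was 425 and moved widely. It was 0 with array weights, 259 without both day 18 libraries of low Nrl, 189 within ESC and 4 within iPSC, 232 with edgeR and 855 with DESeq2. Leaving out each library in turn gave 66 (without the iPSC day 21 library) to 563; it was 101 without the ESC day 35 library, and 135 and 269 without ESC day 21 replicates 2 and 1. Between iPSC and ESC, 1 gene was called with a pseudocount of 0.1 and 0 in the other fits, from 0 to 0 over left-out libraries. Rnf207 had a log2 difference between iPSC and ESC of -0.02 with array weights. Some of these fits, but not all, held fewer libraries or genes. The cause of these changes was not tested.

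Within a source, where a lone library of a day is assumed to vary like the other groups, Wdr17, Xrra1, Ckmt1 and Tub had limma adjusted p of 0.09 to 0.17 in iPSC, and Xrra1 (0.058) and Tub (0.15) also missed the threshold in ESC. DESeq2 called Rnf207 (2.38, adjusted p = 0.023) and Dgkk (-1.80, adjusted p = 0.016). In all, 498 recomputed values counted as unchanged. These kept direction and side of the threshold, moved by less than the spread or, for numbers of genes called, stayed within a set ratio of the main number. Another 15 values moved further, 13 lost their call, 5 gained one and 1 reversed direction.

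The replicate numbers were not shown to pair libraries: same-numbered ESC day 21 and day 18 libraries had correlated deviations of 0.31, 0.06 and 0.25, and ESC day 21 replicate 2 correlated best with day 18 replicate 1. For iPSC day 25 and day 18 the correlation was 0.38 between same-numbered and -0.38 between differently numbered libraries. With 2 libraries a day the deviations mirror each other, so this is 1 value. With the number as a replicate block 670 genes were called, Rasgef1a among them (1.87, limma adjusted p = 0.048). Precision is limited by 2 libraries at day 35 and by estimated counts as low as 5 for Xrra1.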
